A study of Mus musculus with 8 samples.

Results

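Both groups of Shank3-deficient mice were joined and set against wild type, to find differences in prefrontal cortex RNA that go with the genotype whether or not the histone deacetylase inhibitor romidepsin had been given. The comparison takes 5 mutant libraries and 3 wild-type libraries, which are all 8 libraries of the series. The mutants were heterozygous males, Shank3+/ΔC, in which exon 21 of Shank3 is deleted from 1 copy, so the protein made from that copy lacks its C-terminus. Of the mutant libraries, 3 came from saline-treated mice and 2 from mice given 0.25 mg/kg romidepsin by intraperitoneal injection on 3 consecutive days, with tissue taken 1 day after the last dose. Wild-type mice were male littermates of like age, and no treatment is named for them, so genotype and having been injected cannot be told apart in this comparison. The labels give an age of 5 to 6 weeks (the series' own description allows a wider range) and do not say that each library is a separate animal, so p-values measure the spread between these libraries, which may be technical. Each mutant group was weighted by 0.5, so that the 3 saline libraries did not outweigh the 2 romidepsin libraries.

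Shank3 is a scaffold of the postsynaptic density at excitatory synapses, where it links glutamate receptor complexes to the actin cytoskeleton. Its C-terminal part holds the segment that binds Homer and cortactin and the SAM domain through which Shank proteins assemble. Loss of 1 copy of the human gene is a known cause of autism in Phelan-McDermid syndrome, and class I histone deacetylases, the targets of romidepsin, remove acetyl groups from histones at genes across the genome.

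The libraries held 7783537 to 15156318 reads on genes, and 14809 of 24420 genes had enough counts to be tested. The labels name prefrontal cortical slices as the tissue and neurons as the cell type, and the libraries read as mixed tissue. The 12 neuron markers summed to 13750 to 15680 CPM (reads scaled to the library's size, with TMM factors), the 18 astrocyte markers to 7891 to 10370 and the 18 microglia markers to 677 to 952. Wild-type replicate 3 and saline replicate 2 lay at opposite ends of the first principal component (26.6% of the variance), with scores of 24.2 and -35.1 against -1.26 to 9.96 for the other 6 libraries. Saline replicate 2 also had the highest share of reads on the ribosomal RNA precursor Rn45s, 1.12% against 0.316% to 0.611% elsewhere.

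Shank3 itself stood at 299, 308 and 348 CPM in wild type, 316, 252 and 301 with saline and 315 and 313 with romidepsin. The groups overlapped, and the joined mutants stood at 0.947 of the wild-type level (95% interval 0.839 to 1.07, edgeR quasi-likelihood test with Benjamini-Hochberg adjustment, adjusted p = 0.919). In the annotated transcript Shank3-201, exon 21 of 22 spans chr15:89547626-89549882 and makes up 2257 of 7131 bases (31.7%), so transcripts of which 0.5 lacked it would have 15.8% fewer bases to give reads. That size lies just inside the lower end of the interval, and the study's exon numbering may differ from that of this transcript. These whole-gene counts therefore do not check the genotype.

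The joined comparison gave 1 gene. Tmem181b-ps, a transcribed pseudogene of the transmembrane protein gene Tmem181a, was lower in all 5 mutant libraries, at 0.419-fold of wild type. It was the single gene of 14809 to pass at an adjusted p under 0.05 (0.00675% of the genes tested lower, 0% higher). At an unadjusted p under 0.05, 387 genes were higher (2.61%) and 554 lower (3.74%), 6.35% in all. By other tools, DESeq2 called 3 higher and 6 lower and limma-voom 0 higher and 1 lower. The precision was such that the 95% interval lay within 1.5-fold either way of no change for 75.4% of genes, with a median standard error of 0.11 on the log2 scale. These counts moved with single libraries. Without wild-type replicate 3, 11 genes passed lower, and without both libraries at the ends of the first principal component, an alternative chosen after seeing the data, 24 passed higher and 44 lower.

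Tmem181b-ps (chr17:6439002-6450994 in RefSeq on GRCm38) stood at 165, 195 and 222 CPM in wild type, 91.2, 63.8 and 75.7 with saline and 85.6 and 85.5 with romidepsin. The highest mutant library was well below the lowest wild-type library. The joined log2 fold change was -1.25 (SE 0.11, n = 5 against 3, adjusted p = 0.00085), and it passed in all 16 alternative settings. Against the same 3 wild-type libraries the saline group was at 0.398-fold (adjusted p = 0.00215) and the romidepsin group at 0.441-fold (adjusted p = 0.0344). The romidepsin group was at 1.11-fold of the saline group, with a 95% interval of 0.892 to 1.38, so a drug difference within that range was not excluded.

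The pseudogene and its parent are close copies, which bears on how their reads can be told apart. Over the 1412 bases of the Tmem181a coding sequence that align to the pseudogene transcript, 1405 (99.5%) were identical, with 1 gap. A 60-base stretch of that alignment is shown because it holds 2 of the differing bases, given in capitals, and the rest is the same in both copies (GENCODE M21 transcripts, GRCm38, 5′ to 3′; Tmem181a on the plus strand at chr17:6280614-6280673, Tmem181b-ps on the minus strand at chr17:6466947-6467006, which is inside the GENCODE model and outside the RefSeq extent given above).
Tmem181a: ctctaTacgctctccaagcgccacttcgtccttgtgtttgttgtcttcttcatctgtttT
Tmem181b-ps: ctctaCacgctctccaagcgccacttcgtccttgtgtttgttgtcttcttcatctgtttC
Of all 50-base stretches of the Tmem181b-ps transcript, 44.4% occurred unchanged in Tmem181a, and 28.3% of those of Tmem181a occurred in Tmem181b-ps. A second pseudogene on the same chromosome, Tmem181c-ps, shared 61.8% of its stretches with Tmem181a and 68.8% with Tmem181b-ps. How the counting divided reads between these copies is not given in the sources used here, so the level of each is uncertain.

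The other copies had the same direction and did not pass. Tmem181a stood at 70.0, 72.8 and 72.4 CPM in wild type, 54.2, 50.2 and 56.6 with saline and 56.0 and 54.1 with romidepsin, with no overlap (0.757-fold, 95% interval 0.684 to 0.839, adjusted p = 0.232). Tmem181c-ps stood at 5.73, 7.83 and 9.25, then 4.06, 1.99 and 3.08, then 4.63 and 3.29, again with no overlap (0.463-fold, adjusted p = 0.458). Among the dynein light chain genes interleaved with them, Dynlt1a was at 0.877-fold and Dynlt1b at 0.600-fold, both with overlapping groups. For Dynlt1b the log2 fold change was -0.24 with saline and -1.24 with romidepsin, so its joined value averages unlike groups. The RefSeq extent of Dynlt1b (chr17:6429530-6440500) overlaps that of Tmem181b-ps, and how reads in that overlap were counted is not known. Of the 5 tested genes of this block, 1 passed and 3 lay wholly below wild type in the mutants (2.48% of all genes tested did). The 3 are the called gene and its 2 copies, whose reads may mix, so they are not independent. The block was also chosen with earlier results of these data known, so its share is no measure of enrichment.

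**Figure D1:**
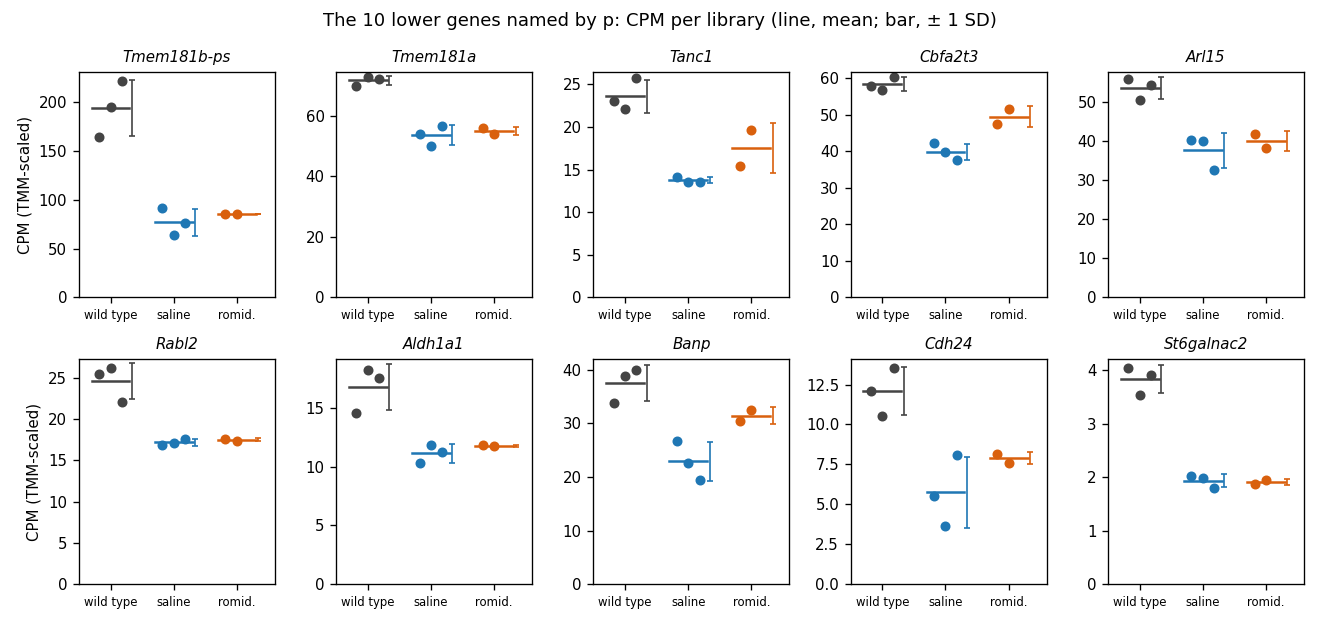
Normalised counts (CPM, linear axis from 0) of Tmem181b-ps and the 9 next lower genes by p, leaving out pseudogenes such as Tmem181c-ps and unnamed genes, 1 point per library, with group means as lines and ± 1 SD as bars (3 wild-type, 3 saline, 2 romidepsin libraries). In each panel the 5 mutant points lie below the 3 wild-type points, and Tmem181b-ps alone passed the adjusted test.

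The next lower genes by p, leaving out pseudogenes and unnamed genes, came short of the threshold. Tanc1, a scaffold protein of the postsynaptic density, stood at 23.0, 22.1 and 25.8 CPM in wild type, 14.2, 13.5 and 13.6 with saline and 15.5 and 19.7 with romidepsin (joined 0.659-fold, 95% interval 0.562 to 0.772, adjusted p = 0.232). Cbfa2t3, a corepressor that recruits histone deacetylases, stood at 58.0, 56.9 and 60.5, then 42.2, 39.8 and 37.7, then 47.5 and 51.5 (0.761-fold, 0.683 to 0.848, adjusted p = 0.232). In both genes the saline libraries were the lowest and the romidepsin libraries lay between them and wild type. Arl15, a small GTPase of the ARF family, stood at 50.5 to 55.8 in wild type and 32.4 to 41.7 in the mutants (0.726-fold, adjusted p = 0.232). Rabl2, a small GTPase linked to cilia, stood at 25.5, 26.1 and 22.1, then 16.8, 17.1 and 17.6, then 17.6 and 17.4 (0.705-fold, 0.611 to 0.812, adjusted p = 0.232). Its 5 mutant libraries spanned less than 1 CPM.

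Further down the ranking, Aldh1a1, a retinaldehyde dehydrogenase, stood at 14.6 to 18.2 CPM in wild type and 10.3 to 11.8 in the mutants (0.680-fold). Banp, a nuclear DNA-binding protein, stood at 33.7, 38.9 and 40.0, then 26.7, 22.5 and 19.5, then 30.3 and 32.5 (0.719-fold), with the romidepsin libraries between the others. Cdh24, a type II cadherin, stood at 10.5 to 13.6 in wild type and 3.67 to 8.18 in the mutants (0.554-fold). St6galnac2, a sialyltransferase, was a low-count gene at 3.54 to 4.04 in wild type and 1.80 to 2.03 in the mutants (0.506-fold). The adjusted p was 0.458 for each of these 4 genes, and none of their groups overlapped.

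No gene passed on the higher side, where 0% of genes were called. Dbp, a transcription factor of the circadian clock output, had the smallest p after Gm3893, an unnamed predicted gene (adjusted p = 0.232). Dbp stood at 41.5, 34.3 and 41.7 CPM in wild type, 57.9, 43.8 and 54.5 with saline and 57.8 and 64.6 with romidepsin (joined 1.44-fold, 95% interval 1.24 to 1.68, adjusted p = 0.255). The gap between the lowest mutant library, saline replicate 2, and the highest wild-type library was small. Cbln1, a secreted synaptic organizer that binds neurexins, stood at 6.65, 8.21 and 7.29, then 10.9, 12.4 and 14.9, then 10.9 and 10.4 (1.56-fold, 1.26 to 1.95, adjusted p = 0.458). Crhbp, which binds corticotropin-releasing hormone, stood at 22.3, 21.1 and 24.2, then 32.6, 26.9 and 33.5, then 27.8 and 31.5 (1.34-fold, adjusted p = 0.490). Sik1, a salt-inducible kinase, stood at 14.5 to 17.2 in wild type and 20.4 to 27.8 in the mutants (1.42-fold, adjusted p = 0.458).

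Of the other higher genes, Marcksl1, a membrane and actin binding substrate of protein kinase C, stood at 64.5 to 78.6 CPM in wild type and 83.2 to 102 in the mutants (1.32-fold, adjusted p = 0.458). Dpysl3, a growth cone protein of the collapsin response mediator family, stood at 53.2 to 63.3 and 68.1 to 78.9 (1.27-fold, adjusted p = 0.458). Nrep, named for neuronal regeneration, stood at 57.0, 61.0 and 52.7, then 75.3, 74.2 and 73.6, then 66.9 and 63.0 (1.22-fold, adjusted p = 0.602). Tmem169, a membrane protein gene, stood at 14.0 to 16.3 and 18.1 to 22.8 (1.37-fold, adjusted p = 0.458). The groups of these 4 genes did not overlap.

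Lag3 was the one gene of the 20 described by p whose groups overlapped. This immune checkpoint receptor gene stood at 6.32, 7.16 and 7.84 CPM in wild type, 9.11, 7.13 and 7.44 with saline and 18.0 and 14.7 with romidepsin. Its joined value of 1.61-fold (adjusted p = 0.458) therefore averages a saline group at 1.12-fold and a romidepsin group at 2.30-fold of wild type. Slc47a1, a cation transporter of meningeal cells here at low counts, stood at 0.706 to 1.26 in wild type, 3.67, 5.24 and 1.54 with saline and 1.77 and 2.88 with romidepsin (2.91-fold, 95% interval 1.61 to 5.26, adjusted p = 0.607). The whole list of meningeal and fibroblast markers is given with the other cell types.

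**Figure D2:**
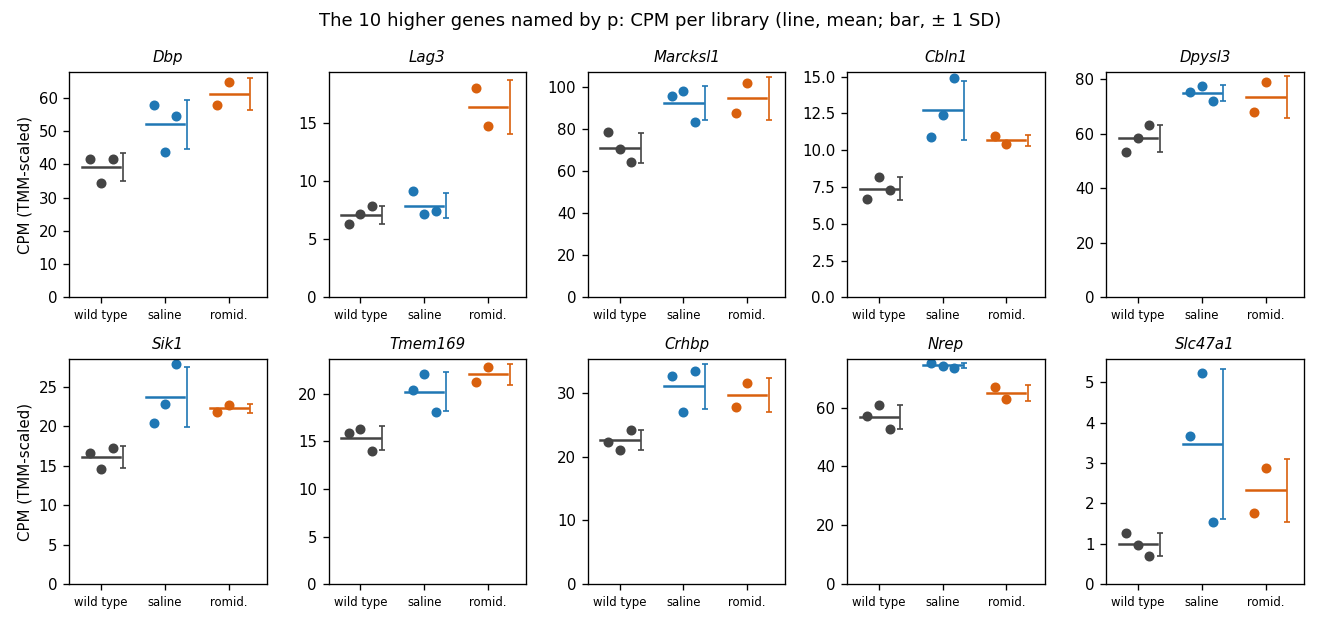
Normalised counts (CPM, linear axis from 0) of the 10 higher genes with the smallest p, leaving out pseudogenes and unnamed genes such as Gm3893, 1 point per library, with group means as lines and ± 1 SD as bars. Lag3 is the panel in which the saline points sit with wild type and the romidepsin points stand at 14.7 and 18.0 CPM, and none of the 10 passed the adjusted test.

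Whether a joined difference held with and without the drug was read from each mutant group against wild type, side by side, and from the direct difference between the mutant groups. The 2 values against wild type share their control libraries and are not independent. Of the 20 genes named by p, 19 had all 5 mutant libraries on 1 side of wild type (4.97% of all genes tested did), a feature close to what ranking by p selects. Rabl2 was at 0.697-fold in the saline group and 0.712-fold in the romidepsin group, St6galnac2 at 0.511 and 0.501, and Marcksl1 at 1.30 and 1.33. For Rabl2 the romidepsin group was at 1.02-fold of the saline group (95% interval 0.848 to 1.23), and for Marcksl1 at 1.02-fold (0.873 to 1.20).

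For 5 of the 20 genes the interval of romidepsin against saline excluded no difference, as it did for 3.26% of all genes tested, and 0 of them passed an adjusted p in that comparison. The 20 were ranked by p in the same fit, and each gene's spread in that fit also sets this interval. The share of 5 in 20 is therefore no measure of enrichment. Banp was at 0.617-fold of wild type in the saline group and 0.837-fold in the romidepsin group, so the romidepsin group was at 1.36-fold of the saline group (95% interval 1.11 to 1.65). Cbfa2t3 was at 0.684 and 0.846, and its ratio of romidepsin to saline was 1.24 (1.08 to 1.42). Tanc1 was at 0.584 and 0.743 (ratio 1.27, 1.03 to 1.57). Nrep was at 1.31 and 1.14 (ratio 0.873, 0.765 to 0.996), so in these 4 genes the romidepsin group was nearer to wild type. In Lag3 the ratio was 2.05 (1.58 to 2.67), with the romidepsin group further from wild type. The smallest adjusted p of the 5, for Lag3, was 0.602.

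**Figure D3:**
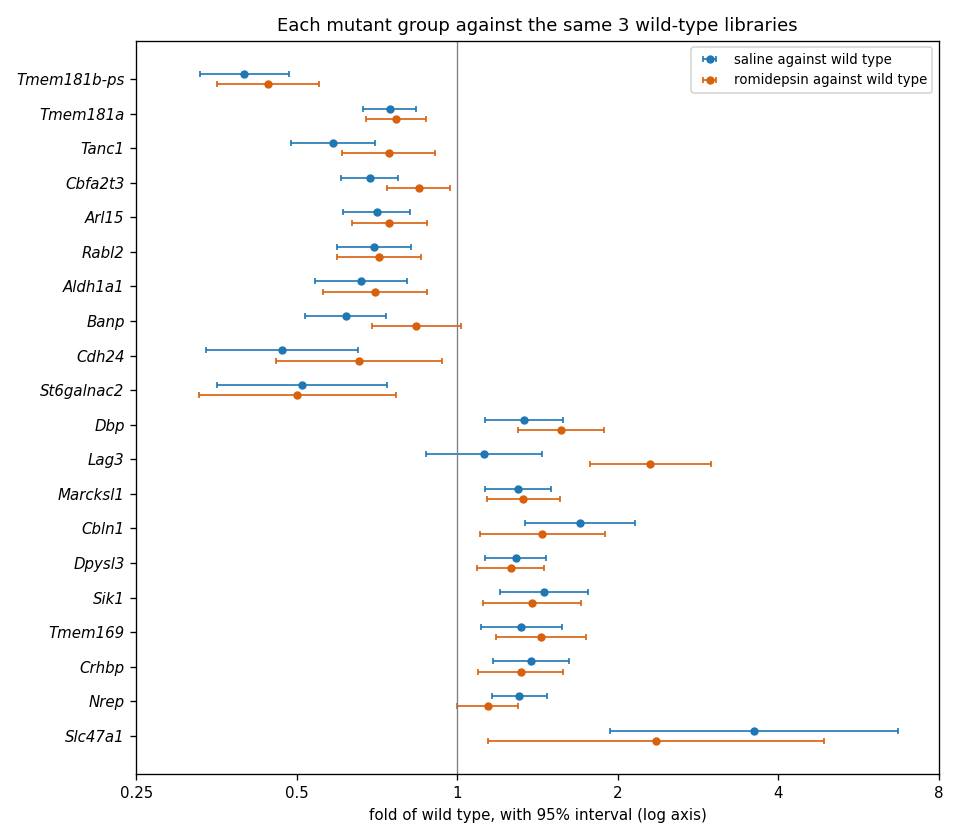
Fold of wild type with its 95% interval (log axis) for the saline group (n = 3) and the romidepsin group (n = 2), each against the same 3 wild-type libraries, for the 20 genes named by p. The paired intervals overlap widely for Tmem181b-ps, Rabl2 and Marcksl1, and they lie apart for Lag3 (1.12-fold and 2.30-fold).

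The drug's targets and beta-catenin showed small joined differences. Hdac1 was at 0.954-fold (95% interval 0.829 to 1.10), Hdac2 at 1.05-fold (0.937 to 1.18) and Hdac3 at 0.942-fold (0.844 to 1.05), each with overlapping groups. The direction of Hdac2 turned without wild-type replicate 3 (log2 fold change -0.01). Ctnnb1, which encodes beta-catenin of the Wnt pathway and of cell junctions, stood at 540.3, 528 and 565 CPM, then 606, 621 and 607, then 567 and 574. Every mutant library was above every wild-type library, the closest pair being 565 and 567, at 1.08-fold (0.988 to 1.19, adjusted p = 0.807).

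Neighbouring genes were examined because those near Shank3 are linked to the deleted allele and the called gene has its copies nearby. Within 1 Mb of Shank3, 31 other genes were tested and 0 passed. At an unadjusted p under 0.05 there were 5 (16.1%, against 6.35% of all genes), and 24 of 31 had a fold below 1. Rabl2, at chr15:89582527-89591960, is 22.3 kb from Shank3, and the sperm protease gene Acr, which lies between them, was at 2.18-fold from 0.253 to 0.678 CPM in wild type and 0.788 to 1.38 in the mutants. Mapk11, a p38 kinase gene 343 kb away, stood at 89.2, 92.6 and 76.7, then 63.2, 57.2 and 71.2, then 71.6 and 72.7 (0.787-fold, adjusted p = 0.602). Dennd6b (0.813-fold) and Tubgcp6 (0.883-fold) were the others. Without the libraries at the ends of the first principal component, an alternative chosen after seeing the data, Mapk11 and Rabl2 passed (adjusted p = 0.011 and 0.0121). Many more genes passed in that setting than in the main comparison, as given above.

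Around Tmem181b-ps, 15 genes were tested within 1 Mb, and the 2 with an unadjusted p under 0.05 were its copies Tmem181a and Tmem181c-ps (13.3%). Tulp4 and Ezr, other genes of that interval, had log2 fold changes of 0.03 and -0.01. Another window, around Banp on chromosome 8, was added after the values were seen, because Cbfa2t3 lies 596 kb from it. Of 28 neighbours there, 2 had an unadjusted p under 0.05 (7.14%, close to the 6.35% of all genes), namely Cbfa2t3 and Zfpm1, a zinc finger cofactor of GATA factors at 0.806-fold.

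**Figure D4:**
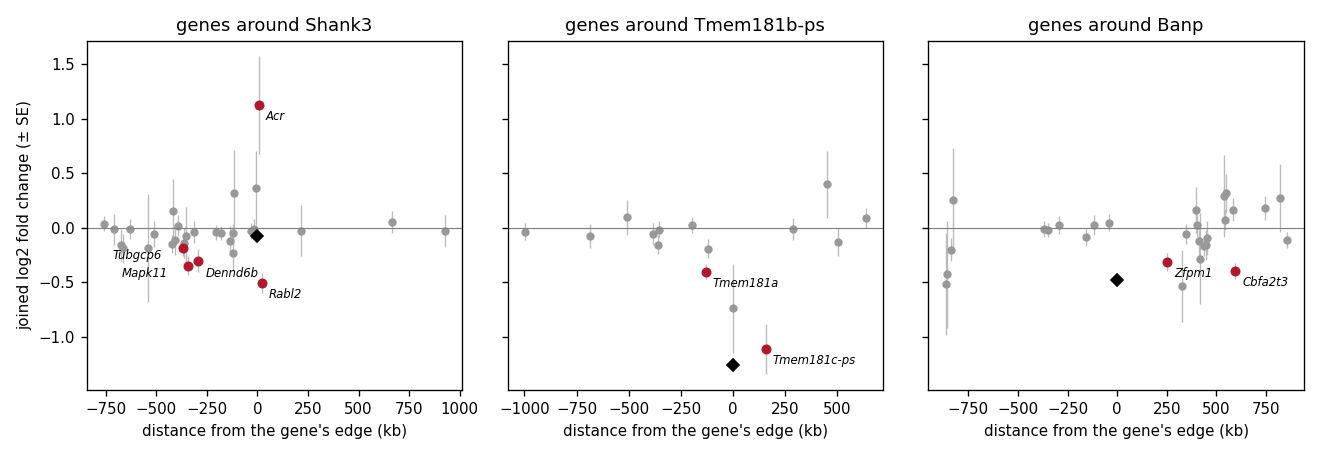
Joined log2 fold change (± SE) of tested genes within 1 Mb of Shank3, Tmem181b-ps and Banp against distance from the edge of that gene in kb, with the central gene as a black diamond at 0 and red points at an unadjusted p under 0.05. Around Shank3, 24 of 31 genes lie below 0, and around Tmem181b-ps the 2 red points are its own copies.

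Of 35 gene lists scored, 20 were described. Tmem181b-ps was their single called member, so the following values are those of members that did not pass. In the lists left out, 0% to 14.3% of members had an unadjusted p under 0.05. The exception was the red blood cell list, whose 1 tested gene was lower at that level. Over all genes tested the median joined log2 fold change was 0.00 and 50.8% had a fold above 1. Genes of the postsynaptic scaffold were split. Of 44 tested, 21 had a fold above 1 and 23 below, with a median log2 fold change of -0.01. The smallest p after Tanc1 belonged to Baiap2, an actin regulator bound by Shank proteins, at 365 to 409 CPM in wild type and 315 to 382 in the mutants (0.874-fold), and to Sipa1l1, a Rap GTPase activator of spines (0.892-fold, groups apart). Nlgn1, a neuroligin, was at 1.14-fold. Of 23 Rap GTPases and regulators, 16 had a fold below 1, and Sipa1 (0.816-fold), Sipa1l1 and Sipa1l3 (0.889-fold) were wholly below wild type, as were 2.48% of all genes. The summed level of this list overlapped, at 3936 to 4371 CPM in wild type and 3562 to 4181 in the mutants. Rap1gap2, a Rap regulator low in saline replicates 2 and 3 only, is described under other observations.

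Glutamate receptors numbered 31, of which 22 had a fold above 1 and 3 lay wholly above wild type, as 2.48% of all genes did. Grin3a, a modulatory NMDA receptor subunit, stood at 62.9, 60.5 and 66.2 CPM, then 84.5, 71.1 and 68.5, then 78.3 and 79.5 (1.22-fold, adjusted p = 0.612). Grik1, a kainate receptor subunit, was at 1.27-fold and Grin2c at 0.817-fold, both with overlap. Of 37 potassium channel genes, 8 had an unadjusted p under 0.05 (21.6%, against 6.35% of all genes), 3 higher and 5 lower. Kcnt1, a sodium-activated channel, stood at 142 to 147 in wild type and 96.6 to 129 in the mutants (0.807-fold). The channel partner Kcnip2 was at 0.889-fold, without overlap, and Kcna1 was at 0.863-fold.

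Neurofilament and internexin genes encode intermediate filaments of axons. The list also holds Nes, described below, which had the list's largest fall and its smallest p. Of the 9 tested, 7 had a fold below 1 and 4 an unadjusted p under 0.05, all lower (44.4%, against 3.74% of all genes lower). The mean log2 difference of the 9 genes from the wild-type mean was 0.03, 0.06 and -0.09 for wild type, -0.21, -0.30 and -0.21 with saline and -0.14 and -0.14 with romidepsin, so the mutant libraries were all below. Their summed level was 3787 to 3849 CPM in wild type, 3603 to 3701 with saline and 3858 and 3999 with romidepsin, so on that measure the saline libraries were below wild type and the romidepsin libraries above. Nes, nestin, of progenitors and vessel cells, stood at 17.1 ± 0.812 CPM (SD) in wild type, 12.1 ± 3.37 with saline and 10.6 ± 2.45 with romidepsin, without overlap (0.666-fold, adjusted p = 0.612). Nefm, the medium neurofilament, stood at 236, 249 and 143, then 124, 139.9 and 165, then 134 and 175 (0.707-fold), so wild-type replicate 3 was inside the mutant range. Nefh, the heavy neurofilament, stood at 48.7 to 70.5 in wild type and 38.9 to 44.4 in the saline group, while the romidepsin libraries read 55.8 and 61.6. Ina, internexin, was at 0.876-fold. In bulk tissue fewer cells of a type and less RNA per cell cannot be told apart, here and for the markers below.

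The circadian clock turns on a loop in which Arntl and Clock activate Per, Cry and Nr1d genes through the E-box CACGTG, and their products repress the activators. Of 21 clock genes, 5 had an unadjusted p under 0.05 (23.8%, against 6.35% of all genes), 3 higher and 2 lower. Beside Dbp, Ciart, a repressor of the loop, stood at 5.81, 7.16 and 7.37 CPM, then 10.7, 10.9 and 9.11, then 8.37 and 10.6 (1.45-fold, adjusted p = 0.612). Arntl, the activator, stood at 46.9, 49.8 and 48.9, then 36.8, 41.8 and 35.3, then 42.8 and 37.6 (0.805-fold, adjusted p = 0.607). Neither gene's groups overlapped, and Ciart lay above wild type where Arntl lay below. Cry1 was at 0.786-fold, with 17.5 to 18.6 in wild type, 12.6 to 18.1 with saline and 12.8 and 12.5 with romidepsin. Nr1d1 was at 1.12-fold.

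The promoters of these 3 genes are shown because Ciart and Dbp lay above wild type and Arntl below, with any E-box in capitals. The first 250 bases of each entry were read from RefSeq promoters on GRCm38.p6, which held an entry for 18 of the 21 clock genes. The Dbp window runs past 45705100, where the gene's RefSeq extent begins, so it lies partly inside that extent. Ciart is on the minus strand at chr3:95882229-95882478, Dbp on the plus strand at chr7:45704997-45705246, and Arntl on the plus strand at chr7:113207215-113207464.
Ciart: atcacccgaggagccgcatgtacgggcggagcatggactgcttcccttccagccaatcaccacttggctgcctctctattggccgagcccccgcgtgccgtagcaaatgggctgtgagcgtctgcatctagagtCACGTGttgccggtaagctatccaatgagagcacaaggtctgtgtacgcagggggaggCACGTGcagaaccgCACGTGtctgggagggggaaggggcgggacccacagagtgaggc
Dbp: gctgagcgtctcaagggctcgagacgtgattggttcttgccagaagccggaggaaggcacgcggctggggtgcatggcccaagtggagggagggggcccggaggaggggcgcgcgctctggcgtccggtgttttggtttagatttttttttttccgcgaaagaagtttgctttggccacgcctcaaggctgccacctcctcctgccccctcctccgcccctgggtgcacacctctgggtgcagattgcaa
Arntl: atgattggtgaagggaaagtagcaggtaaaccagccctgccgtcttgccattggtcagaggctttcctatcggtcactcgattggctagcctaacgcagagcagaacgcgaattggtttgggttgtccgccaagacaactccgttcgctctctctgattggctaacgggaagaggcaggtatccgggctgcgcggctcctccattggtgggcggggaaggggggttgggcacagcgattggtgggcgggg
Searches were made on both strands, for the E-box CACGTG, the D-box TTANGTAA bound by Dbp and its relatives, and the half-site AGGTCA bound by the Nr1d and Ror receptors. Ciart held 3 E-boxes in this window, and the windows of Dbp and Arntl held no match to any of the 3 motifs. A second Arntl entry, not shown, overlaps the first at chr7:113207261-113207510 and held no match either. The 18 clock genes with an entry had 27 promoters, some genes having several that can overlap, and 6 of the 27 promoters held an E-box (22.2%), 2 a D-box (7.41%) and 4 the half-site (14.8%). Over all 32851 promoters of the same length the shares were 6.02%, 2.06% and 14.0%.

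Lists of markers of other cell types had overlapping groups in their summed level. Of 21 meningeal and fibroblast markers, 19 had a fold above 1 and 6 an unadjusted p under 0.05, all higher (28.6%, against 2.61% of all genes), with a median log2 fold change of 0.47. Their summed level was 429 to 736 CPM in wild type, 488 to 1068 in the saline group and 547 to 710.0 in the romidepsin group, and none of the 21 was at 0. Islr (1.36-fold), Lum (1.52-fold) and Ogn (1.72-fold), extracellular matrix genes, had the smallest p after Slc47a1, and their groups overlapped. Of 23 endothelial and mural markers, 9 had an unadjusted p under 0.05, all lower (39.1%, against 3.74% of all genes), and the summed level was 545 to 683 in wild type, 437 to 585 in the saline group and 549 to 635 in the romidepsin group. Flt1, a VEGF receptor, stood at 56.5, 59.5 and 69.4, then 47.8, 31.9 and 38.3, then 56.1 and 48.8 (0.738-fold, adjusted p = 0.607). Eng, endoglin, was at 0.792-fold and Pecam1 at 0.723-fold.

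Microglia markers had a fold above 1 for 15 of 18, led by the receptor gene Trem2 at 9.19 to 11.3 CPM in wild type and 11.4 to 18.0 in the mutants (1.38-fold, adjusted p = 0.652), with Ctss at 1.15-fold and C1qa at 1.18-fold. Oligodendrocyte and myelin markers had a fold below 1 for 20 of 22, and 1 of them, the myelin regulator Myrf at 0.761-fold, had an unadjusted p under 0.05 (4.55%). Their summed level was 3616 to 5779 in wild type and 3517 to 6292 in the mutants, so the ranges overlapped throughout, and the list's median log2 fold change, below 0 in the main comparison, was 0.0025 without the libraries at the ends of the first principal component. Of 16 olfactory and septal markers, which mark tissue next to the prefrontal cortex, 12 had a fold above 1 and 4 below. Their median log2 fold change against wild type was 0.42 with saline and -0.07 with romidepsin. Their mean log2 difference from the wild-type mean was -0.157, -0.262 and 0.419, then 0.0447, 0.785 and 0.725, then -0.154 and -0.0643. Both romidepsin libraries and saline replicate 1 therefore lay inside the wild-type range. In the joined comparison Gng4 was at 1.24-fold, Penk at 1.27-fold and Trh at 2.01-fold. Trh stood at 0.904 to 1.72 in wild type, 1.97, 5.03 and 4.23 with saline and 1.67 and 1.65 with romidepsin. The part of tissue makeup in the named genes was not tested.

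**Figure D5:**
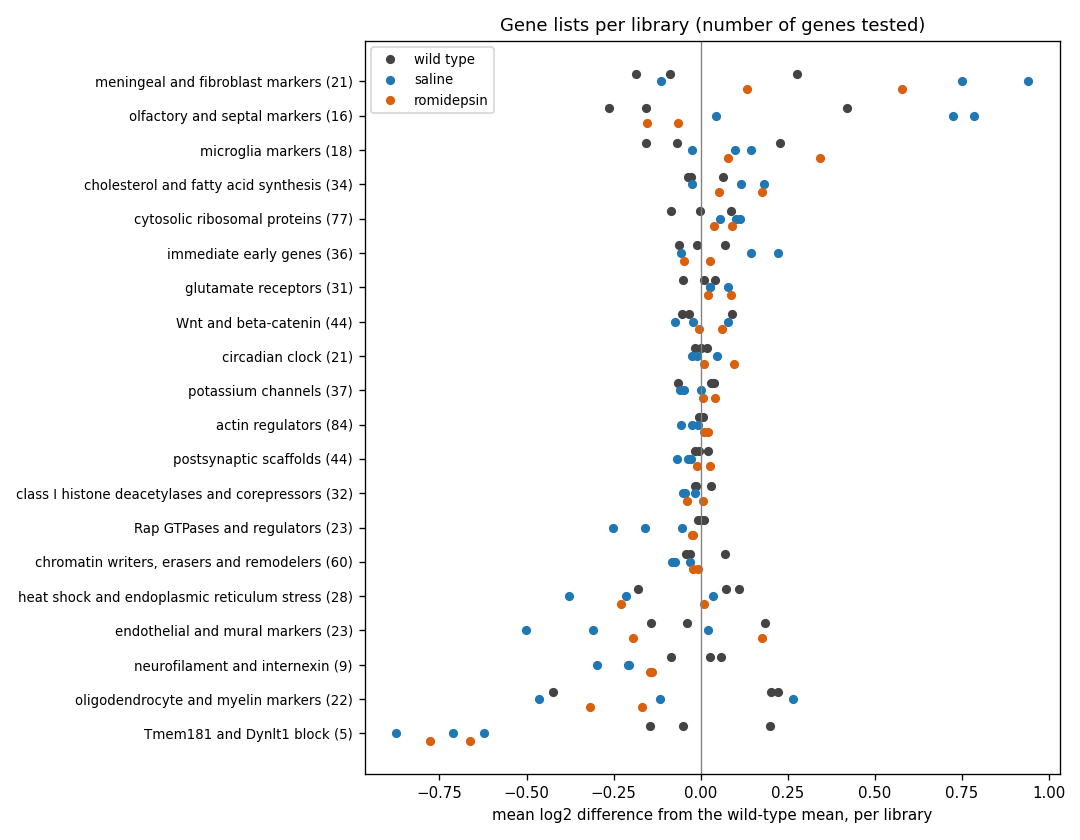
Mean log2 difference from the wild-type mean of each gene list (number of genes tested in brackets), 1 point per library, for the 20 lists described. The neurofilament list, the Rap GTPase list and the Tmem181 and Dynlt1 block have all 5 mutant libraries below all 3 wild-type libraries. In the Rap GTPase list the romidepsin libraries (-0.0223 and -0.0261) lie close to the lowest wild-type library (-0.00888). The lowest values there are saline replicates 2 and 3, the libraries in which Rap1gap2 is low. The groups overlap in the meningeal, vessel and myelin lists.

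Among metabolic genes, of 34 genes of cholesterol and fatty acid synthesis, 30 had a fold above 1. In this list 7 had an unadjusted p under 0.05, all higher (20.6%, against 2.61% of all genes), and 5 lay wholly above wild type (2.48% of all genes did). Acat2 (1.20-fold), Fdft1 (1.14-fold) and Hmgcs1 (1.15-fold), enzymes of cholesterol synthesis, were among those wholly above. The summed level of the list overlapped, at 4831 to 5330 CPM in wild type and 4750 to 5600 in the mutants. Of 77 cytosolic ribosomal protein genes, 71 had a fold above 1, with a median log2 fold change of 0.07, led by Rps2 (1.19-fold) and Rps4x (1.14-fold). Their summed level also overlapped, at 11850 to 13470 CPM in wild type and 13000 to 13670 in the mutants. Of 28 heat shock and endoplasmic reticulum stress genes, 23 had a fold below 1, and the summed level was 8462 to 9407 CPM in wild type and 7928 to 9772 in the mutants. Sdf2l1, an endoplasmic reticulum chaperone component, stood at 14.2 to 23.9 CPM in wild type and 10.5 to 14.0 in the mutants (0.689-fold), and Manf, a stress-induced secreted factor, was at 0.810-fold with overlap.

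Activity-dependent, chromatin and signalling lists were mixed. Of 36 immediate early genes, 5 had an unadjusted p under 0.05 on the higher side and 2 on the lower (19.4% together, against 2.61% of all genes higher and 3.74% lower). Dusp1, a MAP kinase phosphatase, stood at 32.6 to 35.1 CPM in wild type, 37.9, 59.0 and 51.3 with saline and 39.3 and 38.2 with romidepsin (1.28-fold). Nr4a1 was at 1.20-fold and Fosb at 0.812-fold. Of 32 class I histone deacetylase and corepressor genes, 2 had an unadjusted p under 0.05, Cbfa2t3 among them (6.25%, close to the 6.35% of all genes). Of 60 chromatin writers, erasers and remodelers, 35 had a fold below 1, and after Banp the smallest p belonged to Tet3, a methylcytosine oxidase (0.875-fold), Kmt2a, a histone methyltransferase (0.857-fold), and Smarcb1, a remodeler subunit (1.15-fold). Of 44 Wnt and beta-catenin genes, Wnt7b (1.22-fold), Wnt9a (1.18-fold) and Wnt2 (0.698-fold) had the smallest p. Of 84 actin regulators, 40 had a fold above 1 and 44 below, and after Marcksl1 came Ssh3, a cofilin phosphatase (0.738-fold), Myh9, a non-muscle myosin (0.866-fold), and Arhgef2, a guanine nucleotide exchange factor (0.885-fold).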

How the data were processed

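Poly(A) RNA of 8 libraries was compared: 3 wild-type, 3 saline-treated and 2 romidepsin-treated Shank3-deficient. The authors deposited 1 table of un-normalized counts for each library, listed by symbol. The submitters' processing notes name bcl2fastq 2.17.1.14, the aligner TopHat2 2.1.1, the genome mm10/GRCm38 and the counter HTSeq 0.6.1. Which annotation and strand setting HTSeq was run with is not given in the sources used here, so reads of a gene and an antisense partner, or of near-identical copies, may mix. HTSeq's summary entries, present in 7 libraries, were left out, as was 1 gene missing from saline replicate 1.

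Counts were fitted with edgeR 4.0.16 in R 4.3.3 (robust quasi-likelihood, TMM, filterByExpr, a term per group over all 8 libraries, joined contrast weighted 0.5 per mutant group). filterByExpr removed 9611 genes, leaving 14809, with a common biological coefficient of variation of 9.33%. The threshold was an adjusted p of 0.05 (Benjamini-Hochberg, over all genes tested). Alternatives used DESeq2 1.42.0, limma 3.58.1, other scaling, no filter, a replicate block and left-out libraries. Libraries compared pairwise differed by more than sampling noise (chi-square per degree of freedom at least 3.60). On simulated counts for the joined comparison over 14809 genes, 82% of genes changed 1.5-fold and 98% of those changed 2-fold were recovered, with 3.74% of calls false. These genes were drawn from those with higher counts. At each size 100 genes were changed, and 187 calls resulted. The Benjamini-Hochberg threshold is easier to reach with that many calls than with the 1 call of the measured comparison. These shares therefore do not give the recovery in the measured comparison.

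Named genes are Shank3, Rabl2, Hdac1, Hdac2, Hdac3 and Ctnnb1, up to 15 called genes per direction by p, filled to 10 by the next smallest p without pseudogenes and unnamed genes, and, in each list described, the 2 to 4 genes of lowest p. Others were chosen after their values were seen. Some genes that the rule names are not reported here. The comparison, members and lists were chosen with earlier results of these data known. Coordinates are from RefSeq GRCm38.p6, which placed 14765 tested genes.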

Additional observations from a re-analysis of the deposited data

Results flagged for a closer look

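Among the 5 mutant libraries, Shank3 in saline replicate 2 stood apart from the other 4. It read 252 CPM where the nearest other mutant library read 301 and the highest 316, so the gap took 0.764 of the range, above the critical value of 0.71 for 5 samples. Of 25 genes checked in this way 1 was marked, and chance marks about 1 in 20 groups. Without this library and wild-type replicate 3, the joined log2 fold change of Shank3 was 0.04 (adjusted p = 0.879).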

How the results depend on the processing

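Over 16 alternative settings, Tmem181b-ps passed in each, with a log2 fold change between -1.36 and -1.08. Of 100 genes followed, 84 stayed on the same side of the threshold with the same direction in every setting, 14 passed in at least 1 and 2 reversed. Hdac2 reversed to -0.01478 without wild-type replicate 3 (0.1269 without wild-type replicate 1) and to -0.0227 without both libraries at the ends of the first principal component, where Shank3 reversed to 0.03624. The counts of 0 genes higher and 1 lower became 3 and 6 with DESeq2 (adding Gm3893, Dbp and Mgp higher and Tmem181a, Tanc1, Arl15, Pisd-ps2 and Tmem181c-ps lower) and 24 and 44 without both end libraries, an alternative chosen after seeing the data. Leaving out 1 library gave 0 to 1 higher and 1 to 11 lower: 11 without wild-type replicate 3 (Egr3, Mical2 and Homer1 among them), 3 without saline replicate 1, 2 without saline replicate 3 (adding Robo3), and 1 higher, Gm3893, without romidepsin replicate 2. The cause was not tested. Limma-voom, RLE scaling, no filter, a single mutant group and non-robust dispersion gave 0 and 1.

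With the replicate number as a block, 2 genes passed higher (Gm3893 and Tuba1c) and 1 lower (Tmem181b-ps, adjusted p = 0.0273). No pairing by number was seen: deviations of the 7 same-numbered pairs correlated at -0.175 to 0.103, and 3 of 8 libraries correlated best with their own number. Deviations from the means of such small groups are constrained, so this check cannot exclude a pairing. Depth limits low genes such as Acr, Slc47a1 and Trh, and intervals cover the spread between these libraries only.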

Other observations

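Some genes had libraries at 2 separate levels inside a mutant group, which a joined mean hides. Values are CPM, the genes were chosen after their values were seen, and no cause was tested. Rap1gap2, a Rap GTPase activating protein gene on chromosome 11, stood at 484, 452 and 391 in wild type, 449, 42.3 and 37.6 with saline, and 499 and 469.5 with romidepsin. It was the single gene of 14809 with a gap of at least 1.5 on the log2 scale between neighbouring libraries that left at least 2 libraries on each side, each side spanning at most 0.5 of the gap, and with a highest level of at least 5 CPM (pseudocount 0.5). Its joined adjusted p was 0.946, and without saline replicate 1 it passed with a log2 fold change of -1.67. Wdfy1, an endosomal adaptor gene, stood at 61.2, 68.7 and 63.3, then 42.8, 20.1 and 20.6, then 43.7 and 60.8, so the same saline libraries, replicates 2 and 3, were lowest in both genes.

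Gm3893, an unnamed predicted gene left out by the naming rule, stood at 5.47, 5.87 and 6.90 in wild type, 22.8, 16.0 and 23.1 with saline, and 23.0 and 9.36 with romidepsin (3.00-fold, edgeR quasi-likelihood adjusted p = 0.232), so all 5 mutant libraries lay above wild type. Tuba1c, an alpha tubulin gene with close paralogs, stood at 0.151 to 0.337 in wild type and reached 18.3 in saline replicate 1 and 15.3 in romidepsin replicate 1, with the other mutant libraries at 0.385 to 1.57. Robo3, an axon guidance receptor gene, stood at 24.6, 28.9 and 33.1, then 8.58, 10.1 and 20.1, then 19.9 and 18.8 (0.537-fold, adjusted p = 0.607).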
